A study of Mus musculus with 4 samples.

Results

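The bile acid and organic anion transporters of the mouse liver were taken as 10 genes, chosen by name: the uptake carriers Slc10a1, Slco1a1, Slco1a4, Slco1b2 and Slco2a1, the canalicular pumps Abcb11, Abcb4 and Abcc2, and the basolateral pumps Abcc3 and Abcc4. They were read by 11 of the 39429 non-control probes, or 10 of 31709 genes, since Slc10a1 had 2 probes and each other gene had 1. The samples were livers of 4 male C57BL/6 mice with a global knockout of Ilrun (IlrunKO) and of 4 male wild-type (WT) C57BL/6 mice, all on chow and fasted for 4 h. Each of 4 Agilent arrays held 1 IlrunKO and 1 WT sample in different dyes, IlrunKO in Cy5 on arrays 1 and 2 and in Cy3 on arrays 3 and 4, and mice are numbered by their array. The labels used here state neither which stretch of Ilrun is deleted nor whether a sample is 1 mouse or a pool. With 1 mouse per sample assumed, p-values measure the spread of ratios between arrays of the same dye orientation. That spread is moderated by the variances of all genes tested. An SD beside a ratio is over all 4 arrays, so it still holds any dye effect.

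Hepatocytes take bile acids and other organic anions from portal blood through carriers on the sinusoidal membrane, chiefly the sodium-taurocholate cotransporter encoded by Slc10a1 and the sodium-independent carriers encoded by the Slco1 genes. Bile acids leave across the canalicular membrane through the bile salt export pump, the product of Abcb11, while Abcb4 moves phosphatidylcholine and Abcc2 moves conjugates such as bilirubin glucuronides into bile. Abcc3 and Abcc4 sit on the basolateral side and return conjugates and bile acids to blood, a route that is known to be used more when bile flow is blocked.

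The probe sequences mattered for 1 gene. The first 30 of 60 bases are shown for both Slc10a1 probes, whose results differed, and for the probes of Slco1a1 and Slco1a4, neighbouring members of the same family that gave unlike patterns. Capitals mark bases that lie in a run of at least 20 bases also present in another gene's probe on the array or in another gene's RefSeq promoter (GRCm38.p6).
Slc10a1, single-gene probe: cctacaaaggcattatgttatcactcgtca
Slc10a1, repeat-like probe: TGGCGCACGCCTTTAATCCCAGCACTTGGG
Slco1a1: gatattctcaaagactactttcttatactc
Slco1a4: tatctcggtggatatgtgattgcctaatac
In mm9, the build of the files, the single-gene probe of Slc10a1 lies at chr12:82061470-82061529 on the minus strand and the repeat-like probe at chr12:82056539-82056598 on the minus strand. The Slco1a1 probe lies at chr6:141856493-141856552 and the Slco1a4 probe at chr6:141754675-141754734, both on the minus strand. Exons and introns were not assigned. The repeat-like probe shared such runs with 3 other probes and 3 promoters, its accession list also named 4930402H24Rik, Med16 and Spc24, and its letters resemble the B1 short interspersed repeat of the mouse genome. The other 10 probes shared no run of 20 bases with the 39429 probes or the promoters of 27025 genes searched. Whole transcripts were not searched, so the binding of other transcripts was not tested. The name single-gene probe refers to this search and to the accession list only.

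The arrays bore out their labels: Ilrun levels, as normalised log2 intensity, were 7.76 to 7.99 in IlrunKO livers and 12.02 to 12.32 in WT livers, a log2 ratio of -4.21 ± 0.24 (SD, n = 4; adjusted p = 0.00331 by limma). Between 60.0% and 67.3% of probes were well above background in each channel, and all arrays shared 1 slide and 1 scan. The number of arrays limits the precision, and the median 95% confidence interval of a gene's log2 ratio reached 0.147 to either side. All 11 transporter probes were well above background in 4 of 4 IlrunKO and 4 of 4 WT channels. Ratios below are log2 of IlrunKO over WT. The words "rose" and "fell" are used only where limma's adjusted p over all 19675 genes tested was under 0.05. Such calls depended on the setting: 0 genes passed by limma with a trended and robust variance, and 1 passed with median centring. No gene said below to have risen or fallen therefore passed under the first of these settings. A level is a normalised log2 intensity that cannot be compared between probes. Between mice, a level still holds any dye effect of its probe, which the fit takes out of ratios only. IlrunKO mice 1 and 2 and WT mice 3 and 4 were read in Cy5, and the others in Cy3. Rankings of mice by level can therefore mix mouse and dye. In whole liver, fewer cells of a type and less RNA per cell cannot be told apart.

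No transporter passed that threshold, 0 of 10 genes against 1.37% of all genes tested (269 of 19675 by limma). At an unadjusted p under 0.05 there were 2 of 10 members, Slco1a1 and Abcb4, where 20.5% of all genes tested lay under it. With the single-gene probe for Slc10a1, there were 3 of 10. Ratios were above 0 for 6 members and below 0 for 4, with a median of 0.02, or for 5 and 5 with a median of -0.03 by the single-gene probe of Slc10a1, against a median of 0.00 over all genes tested. The ratio was below 0 on 4 of 4 arrays for 2 of 10 members, again Slco1a1 and Abcb4 (11.6% of all genes), or 3 of 10 by the single-gene probe of Slc10a1, and above 0 on 4 of 4 arrays for 0 of 10 (11.7%).

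**Figure D1:**
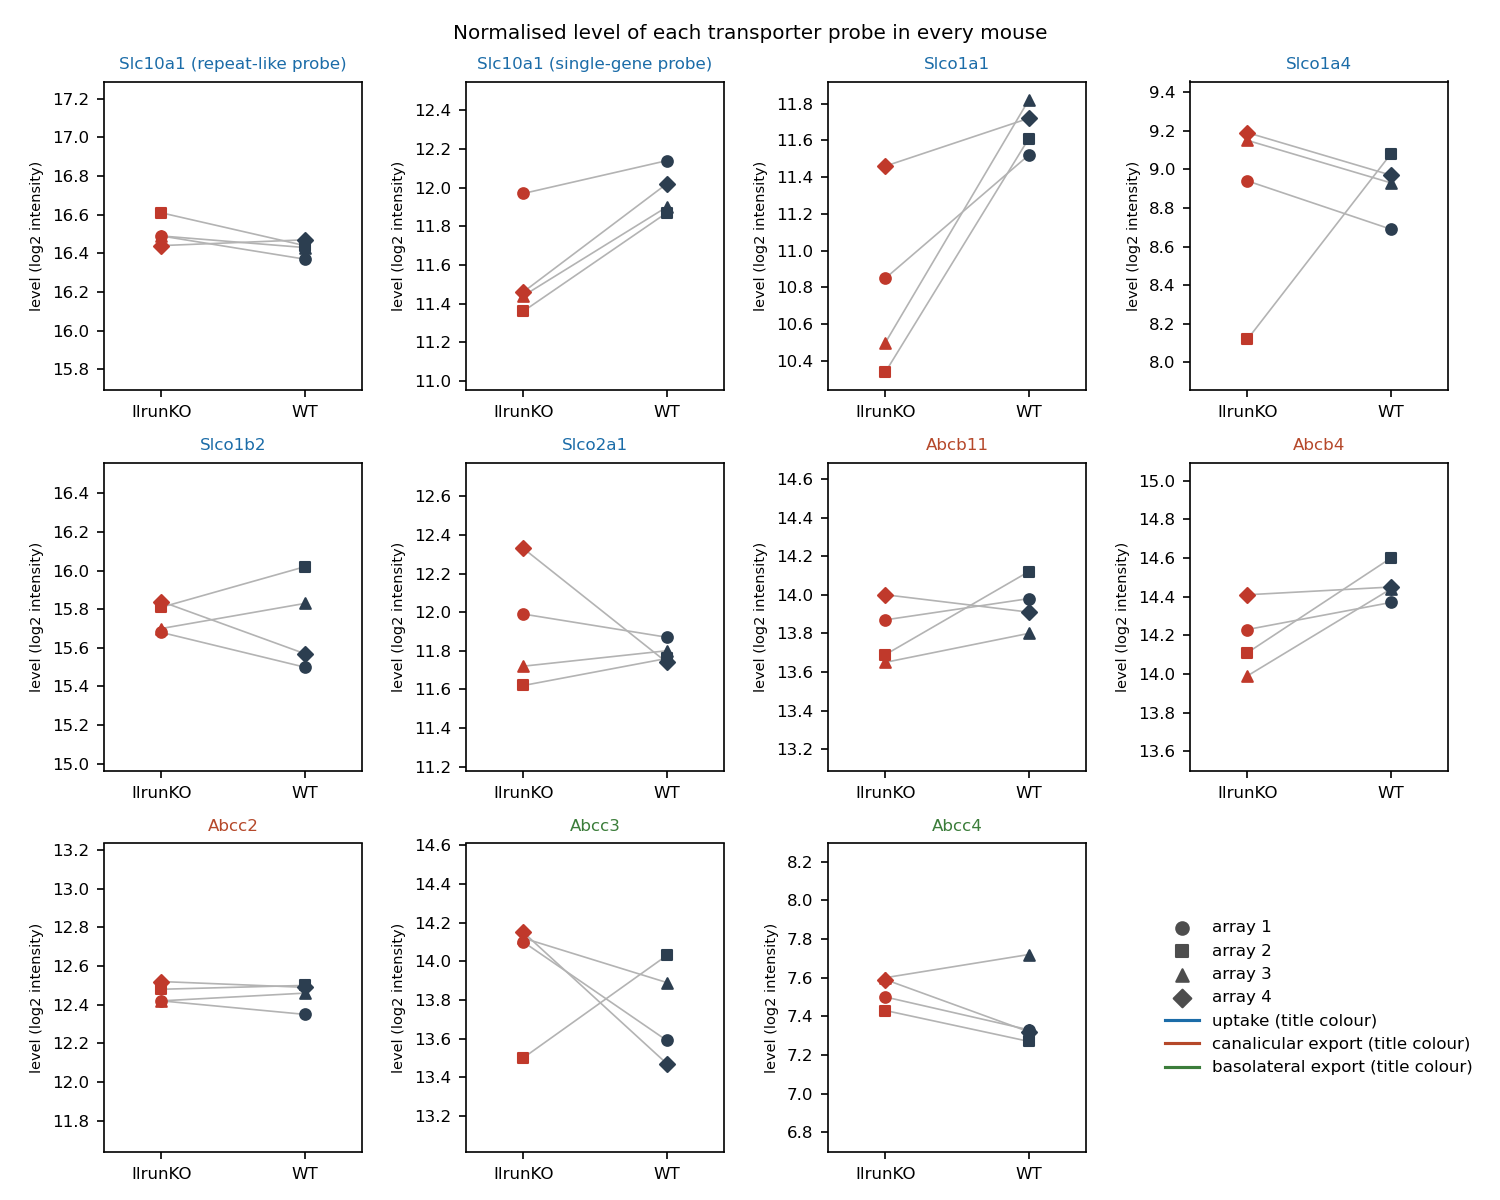
Normalised level of each transporter probe (vertical axis, log2 intensity) in 4 IlrunKO and 4 WT mice, with a line joining the mice of 1 array and marker shapes giving the array. Slco1a1 is the 1 probe whose IlrunKO levels (10.34 to 11.46) all lie below its WT levels (11.52 to 11.82).

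Among the uptake carriers, Slco1a1 had the lowest ratio. Slco1a1 encodes a carrier of bile acids, steroid conjugates and drugs, and in mice it is known to be higher in male than in female liver. Its level was 10.85, 10.34, 10.50 and 11.46 in IlrunKO mice 1 to 4, against 11.52, 11.61, 11.82 and 11.72 in WT mice 1 to 4. The groups did not overlap, with every IlrunKO mouse below every WT mouse, which held for 1 of the 10 members and for 4.22% of all genes. IlrunKO mice 2 and 3 were lowest and IlrunKO mouse 4 came close to the WT range. The spread between IlrunKO mice (SD 0.50) exceeded that between WT mice (SD 0.13). The ratio was -0.67, -1.28, -1.32 and -0.26 on arrays 1 to 4, a mean of -0.88 ± 0.51 (SD, n = 4), or 1.84-fold lower in IlrunKO livers, with a 95% confidence interval of -1.40 to -0.36. Its adjusted p was 0.113 by limma (unadjusted p = 0.00790), so the difference did not hold up over all genes. A model that fits each channel separately gave Slco1a1 an adjusted p of 0.0168, under which 12.5% of all genes passed.

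Elovl3, a fatty acid elongase that is also higher in male mouse liver, had ratios of -0.49, -1.99, -1.72 and -0.76 on arrays 1 to 4 (adjusted p = 0.116). Its IlrunKO levels of 12.17, 11.26, 11.01 and 12.03 were all below its WT levels of 12.66, 13.25, 12.74 and 12.79. In this gene too IlrunKO mice 2 and 3 were the lowest. The male-biased list did not move one way: of 17 genes tested 1 rose and 0 fell, with a median of -0.01. The gene that rose was Mup20, a urinary pheromone protein, with ratios of 2.53, 2.87, 0.29 and 1.04 (adjusted p = 0.0345 by limma). Those ratios split by dye orientation, and the dye term of the fit takes up that split. In it, a dye effect cannot be told apart from a difference between mice 1 and 2 and mice 3 and 4. Of 16 female-biased genes tested, 0 passed by limma and 6 had an unadjusted p under 0.05, with a median of 0.09.

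The probes of Slc10a1, which encodes the main sodium-dependent bile acid carrier of hepatocytes, disagreed. By its single-gene probe the level was 11.97, 11.36, 11.44 and 11.46 in IlrunKO mice 1 to 4, against 12.14, 11.87, 11.90 and 12.02 in WT mice 1 to 4. The ratio was -0.17, -0.51, -0.47 and -0.56 on arrays 1 to 4, with a mean of -0.43 ± 0.17 (SD, n = 4) and a 95% confidence interval of -0.61 to -0.24. This was 1.34-fold lower in IlrunKO livers, below 0 on 4 of 4 arrays, and the groups overlapped only through IlrunKO mouse 1. The adjusted p over the 24377 probes tested was 0.0699 by limma (unadjusted p = 0.00188), where 1.51% of probes passed, so it missed the threshold.

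By the repeat-like probe, which was the brighter and therefore stood for the gene in the fit, the Slc10a1 level was 16.49, 16.61, 16.49 and 16.44 in IlrunKO mice 1 to 4, against 16.37, 16.44, 16.43 and 16.47 in WT mice 1 to 4. The groups overlapped and the ratio of 0.08 ± 0.09 (SD, n = 4; 95% confidence interval -0.04 to 0.20, adjusted p = 0.424 by limma) was of the other sign. The single-gene probe's ratio was lower than the repeat-like probe's on 4 of 4 arrays. The difference, single-gene minus repeat-like, was -0.29, -0.68, -0.53 and -0.53, a mean of -0.51 ± 0.16 (SD, n = 4). With the single-gene probe standing for the gene, Slc10a1 had an adjusted p of 0.0730 over all genes. How much of the repeat-like probe's signal came from Slc10a1 was not tested.

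Slco1a4, which encodes a carrier of bile acids and cardiac glycosides and in mice responds to drug-sensing nuclear receptors, turned on 1 mouse. Its level was 8.94, 8.12, 9.15 and 9.19 in IlrunKO mice 1 to 4, against 8.69, 9.08, 8.93 and 8.97 in WT mice 1 to 4. IlrunKO mouse 2 lay below all the others, and IlrunKO mice 3 and 4 lay above every WT mouse. The ratio was 0.25, -0.96, 0.22 and 0.22 on arrays 1 to 4, a mean of -0.07 ± 0.60 (SD, n = 4; adjusted p = 0.892 by limma). Without array 2 the fitted ratio turned to 0.24. Without array 1 it was -0.37, in a fit where array 2 counts as much as arrays 3 and 4 together.

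Slco1b2, the mouse counterpart of the human hepatic OATP1B carriers of bilirubin, bile acids and statins, overlapped between the groups. Its level was 15.68, 15.81, 15.70 and 15.84 in IlrunKO mice 1 to 4, against 15.50, 16.02, 15.83 and 15.57 in WT mice 1 to 4. The ratio of 0.03 ± 0.23 (SD, n = 4) had a 95% confidence interval of -0.23 to 0.29 (adjusted p = 0.912 by limma). Slco1a1, Slco1a4 and Slco1b2 belong to a row of 8 neighbouring protein-coding genes that runs from Slco1c1 to Slco1a5 in the RefSeq annotation. Of these 8, 4 passed the background filter. The fourth, Gm6614, was well above background in only 1 of 4 IlrunKO and 3 of 4 WT channels, so its ratio is not read here.

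Slco2a1, the prostaglandin transporter, is grouped with the uptake carriers but is not known as a bile acid carrier. Its level was 11.99, 11.62, 11.72 and 12.33 in IlrunKO mice 1 to 4, against 11.87, 11.76, 11.80 and 11.74 in WT mice 1 to 4. WT mice lay close together and inside the IlrunKO range, with IlrunKO mouse 4 highest. The ratio was 0.12 ± 0.33 (SD, n = 4; 95% confidence interval -0.20 to 0.44, adjusted p = 0.645 by limma).

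**Figure D2:**
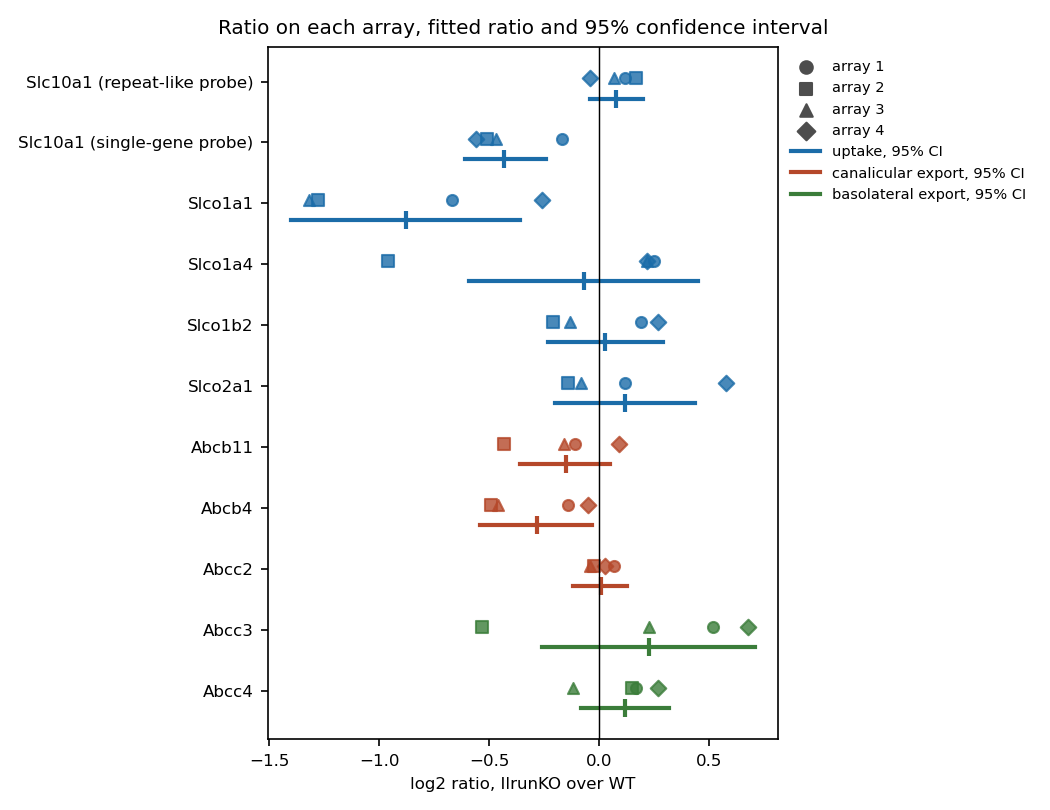
Log2 ratio of IlrunKO over WT (horizontal axis) for each transporter probe, with a marker per array and, beneath, the fitted ratio (tick) with its 95% confidence interval (line). The intervals of Slco1a1 (-1.40 to -0.36), the single-gene probe of Slc10a1 (-0.61 to -0.24) and Abcb4 (-0.54 to -0.03) lie below 0, and none of these passed after adjustment.

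Of the canalicular pumps, Abcb4 had the lowest ratio. Its product flips phosphatidylcholine into bile, where it shields the bile duct lining from bile acids. Its level was 14.23, 14.11, 13.99 and 14.41 in IlrunKO mice 1 to 4, against 14.37, 14.60, 14.44 and 14.45 in WT mice 1 to 4. Only IlrunKO mouse 4 reached the WT range. The ratio was -0.14, -0.49, -0.46 and -0.05 on arrays 1 to 4, a mean of -0.28 ± 0.22 (SD, n = 4), or 1.22-fold lower in IlrunKO livers, with an adjusted p of 0.207 by limma (unadjusted p = 0.0347). Without array 2 it was -0.20 and without array 3 it was -0.18.

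Abcb11, the bile salt export pump, had levels of 13.87, 13.69, 13.65 and 14.00 in IlrunKO mice 1 to 4, against 13.98, 14.12, 13.80 and 13.91 in WT mice 1 to 4. IlrunKO mice 2 and 3 were again the lowest, and the groups overlapped. The ratio was -0.15 ± 0.21 (SD, n = 4; 95% confidence interval -0.36 to 0.05, adjusted p = 0.355 by limma). Without array 2 it was -0.07, and without array 3 it was -0.09.

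Abcc2, the canalicular pump of glucuronide and glutathione conjugates, varied least of the 10 between arrays. Its level was 12.42, 12.48, 12.42 and 12.52 in IlrunKO mice 1 to 4, against 12.35, 12.50, 12.46 and 12.49 in WT mice 1 to 4. The groups covered nearly the same range. The ratio was 0.01 ± 0.05 (SD, n = 4), with a 95% confidence interval of -0.12 to 0.13.

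The basolateral pumps both had mean ratios above 0. Abcc3, which returns glucuronides and bile acids to blood and is induced by drug-sensing receptors in mice, had levels of 14.10, 13.50, 14.12 and 14.15 in IlrunKO mice 1 to 4, against 13.59, 14.03, 13.89 and 13.47 in WT mice 1 to 4. As for Slco1a4, IlrunKO mouse 2 stood apart, while IlrunKO mice 1, 3 and 4 lay above every WT mouse. The ratio was 0.52, -0.53, 0.23 and 0.68 on arrays 1 to 4, a mean of 0.23 ± 0.54 (SD, n = 4; adjusted p = 0.569 by limma). Without array 2 it was 0.49. Without array 1 it was -0.04, again in a fit where array 2 counts as much as arrays 3 and 4 together.

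Abcc4, which exports bile acids together with glutathione and also carries cyclic nucleotides, had levels of 7.50, 7.43, 7.60 and 7.59 in IlrunKO mice 1 to 4, against 7.33, 7.27, 7.72 and 7.32 in WT mice 1 to 4. WT mouse 3 was the highest of all, and every IlrunKO mouse lay above WT mice 1, 2 and 4. The ratio was 0.12 ± 0.17 (SD, n = 4; 95% confidence interval -0.08 to 0.32, adjusted p = 0.458 by limma). Without array 4 it was 0.02, and without array 3 it was 0.21.

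Uptake was set against export on each array as the mean ratio of the 5 uptake carriers minus that of the 5 exporters, without a test, since the genes were chosen by hand. The uptake mean was 0.00, -0.48, -0.25 and 0.16 on arrays 1 to 4, and the export mean was 0.10, -0.26, -0.11 and 0.21. Both means were lowest on array 2 and highest on array 4. Their difference was -0.10, -0.22, -0.14 and -0.05, a mean of -0.13 ± 0.07 (SD, n = 4), so uptake lay below export on each array. With the repeat-like probe for Slc10a1 this sign rested on Slco1a1: without it the difference was 0.07, -0.02, 0.13 and 0.05, a mean of 0.06 ± 0.06 (SD, n = 4), above 0 on 3 of 4 arrays. With the single-gene probe for Slc10a1 the difference was -0.16, -0.36, -0.25 and -0.15, a mean of -0.23 ± 0.10. With that probe and without Slco1a1 it was 0.00, -0.19, -0.01 and -0.08, a mean of -0.07 ± 0.09. Before rounding, these last values were below 0 on 4 of 4 arrays, but those of arrays 1 and 3 were too near 0 to give a direction. By membrane, also without a test, the canalicular mean was -0.06, -0.31, -0.22 and 0.03, and the basolateral mean was 0.34, -0.19, 0.06 and 0.48. These are means of 3 and 2 genes, and no pump passed. The pumps of a class were not alike: on array 2 Abcc2 (-0.02) lay above the basolateral mean. Abcc3 (0.23 ± 0.54) varied more between arrays than Abcc4 (0.12 ± 0.17).

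**Figure D3:**
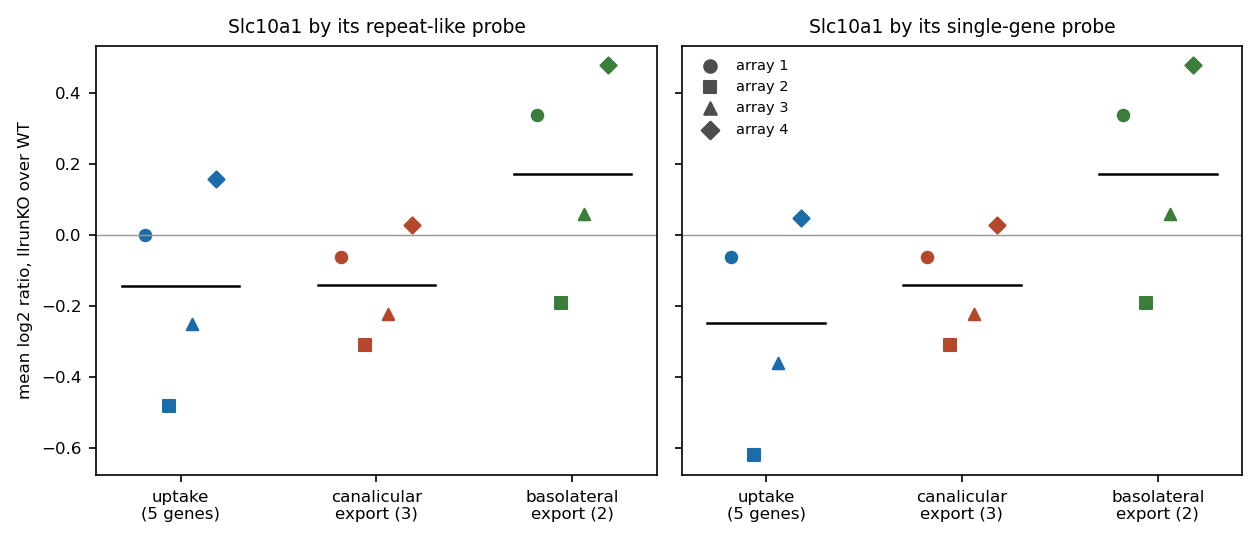
Mean log2 ratio of IlrunKO over WT (vertical axis) of the 5 uptake carriers, 3 canalicular and 2 basolateral exporters on each array, with bars at the mean over arrays; Slc10a1 is read by its repeat-like probe on the left and its single-gene probe on the right. The basolateral mean (0.17 ± 0.30) lies above the canalicular mean (-0.14 ± 0.15) on each array, and array 2 is lowest in all 3 classes. The classes were not compared by a test, and no exporter passed.

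Array 2 carried the lowest ratio for 6 of the 10 members, against 0, 3 and 1 on arrays 1, 3 and 4, and array 4 carried the highest for 7. Of 27 other hepatobiliary transporters with a ratio on every array, 10 were lowest on array 2 and 9 were highest on array 4. The share over all genes was not counted, so these counts are not read as a trait of the members. Ratios were below 0 for 8 members on array 2 and for 3, 7 and 3 members on arrays 1, 3 and 4. IlrunKO mouse 2 also stood apart in other genes, which were picked out after their values were seen. Cyp3a11, a drug-metabolising cytochrome P450, had ratios of 0.56, -3.70, -0.37 and 0.18 on arrays 1 to 4. Gsta1, a glutathione transferase, had ratios of 1.54, -1.15, 1.26 and 1.12. On array 2 these genes, like Slco1a4 and Abcc3, went the other way from arrays 1 and 4. Of 24 NRF2 and xenobiotic target genes with a ratio on every array, 15 were lowest on array 2. For this count too, the share over all genes was not counted.

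Acute phase genes, which the liver switches on in inflammation, were high in the same mouse. Saa1, serum amyloid A, had levels of 13.19, 16.58, 14.62 and 12.95 in IlrunKO mice 1 to 4, against 14.50, 12.62, 12.68 and 12.96 in WT mice 1 to 4. Of 15 acute phase genes tested, 14 had their highest ratio on array 2 and 13 their lowest on array 1, where the WT mouse was high. This list was picked after values were seen, and the share over all genes was not counted. The counts therefore describe the picked genes only. The mean level of the 15 ranged from 13.02 to 14.23 in IlrunKO mice and from 12.92 to 13.82 in WT mice, and 0 passed by limma (4 at an unadjusted p under 0.05). The part of this in the low Slco1a4, Abcc3 and Slco1a1 of IlrunKO mouse 2 was not tested.

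**Figure D4:**
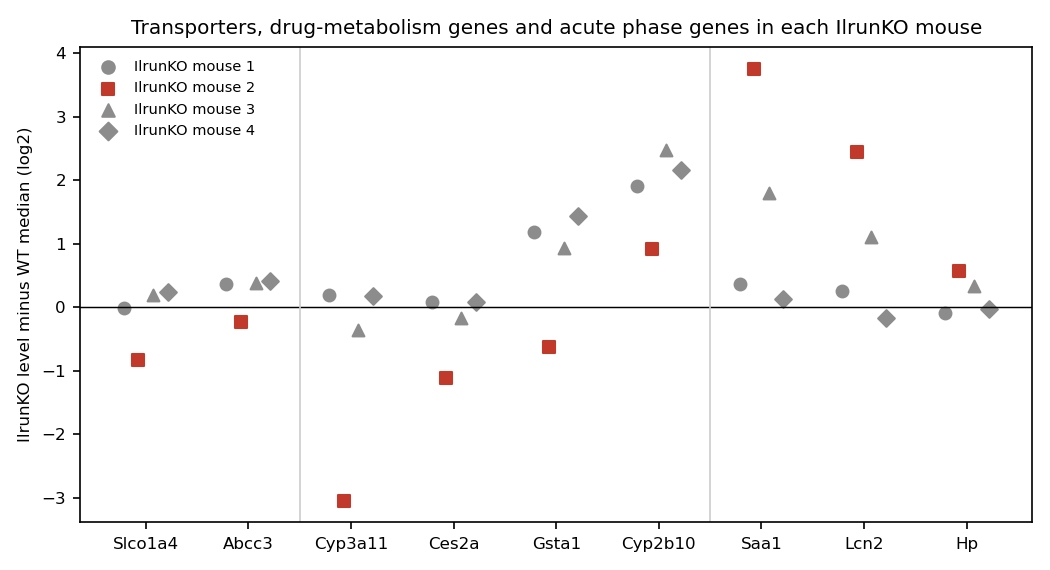
IlrunKO level minus the median WT level (vertical axis, log2) in each IlrunKO mouse for 2 transporters (left), 4 drug-metabolism genes (middle) and 3 acute phase genes (right), IlrunKO mouse 2 in red squares. IlrunKO mouse 2 lies lowest for Slco1a4 (-0.83), Abcc3 (-0.24) and Cyp3a11 (-3.05) and highest for Saa1 (3.76); the genes other than the transporters were picked after their values were seen.

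Of 34 other hepatobiliary transporters and their scaffold proteins, 28 were tested, and by limma 0 rose and 0 fell (6 at an unadjusted p under 0.05). Their ratios ran from -0.61 to 0.53 with a median of 0.01. Slc51b, the beta subunit of the basolateral bile acid exporter OST, had levels of 6.72, 6.70, 6.58 and 6.66 in IlrunKO mice 1 to 4, against 6.54, 6.41, 6.31 and 6.33 in WT mice 1 to 4. Its IlrunKO levels were all above its WT levels (true of 4.75% of all genes), with a ratio of 0.27 (adjusted p = 0.0806), and it was well above background in 4 of 4 IlrunKO and 3 of 4 WT channels. Its signal was weak. Slc51a, for the alpha subunit of OST, was above background in 0 of 4 IlrunKO and 0 of 4 WT channels, with mean levels of 6.06 and 6.18. The others with the smallest p were Myo5b, a motor that carries pumps to the canalicular membrane, at 0.27 (adjusted p = 0.124), Abcc9 at -0.25 (adjusted p = 0.164) and the drug pump Abcb1a at 0.19 (adjusted p = 0.175).

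Among 18 bile acid synthesis genes tested, 1 fell and 0 rose, with a median of -0.12. The gene that fell was Cyp39a1, an oxysterol 7-alpha-hydroxylase, with ratios of -1.87, -1.94, -0.52 and -0.30 on arrays 1 to 4 (adjusted p = 0.0300 by limma). Its groups overlapped, with levels of 7.94 to 9.66 in IlrunKO mice and 9.45 to 10.29 in WT mice. Those ratios too split by dye orientation, and the dye term takes up that split. A dye effect and a difference between mice 1 and 2 and mice 3 and 4 cannot be told apart in it. Cyp7a1, the rate-limiting enzyme of bile acid synthesis, had ratios of 1.38, 2.07, 1.00 and -1.86 (adjusted p = 0.515 by limma). Scp2 at -0.34 (adjusted p = 0.0504), the conjugating enzyme Baat at -0.23 (adjusted p = 0.0938) and the peroxisomal oxidase Acox2 at 0.31 (adjusted p = 0.143) did not pass.

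Of 20 regulators of transport and bile acid synthesis, 1 fell and 0 rose. Fgfr4, the hepatocyte receptor through which intestinal FGF15 holds down bile acid synthesis in mice, had levels of 10.45, 10.64, 10.75 and 10.73 in IlrunKO mice 1 to 4, against 11.11, 11.27, 11.34 and 11.04 in WT mice 1 to 4. Every IlrunKO mouse lay below every WT mouse, and the ratio was -0.65, -0.63, -0.59 and -0.31 on arrays 1 to 4, a mean of -0.55 ± 0.16 (SD, n = 4; adjusted p = 0.0432 by limma). Ppara at -0.18 (adjusted p = 0.131), Hnf4a at -0.13 (adjusted p = 0.238) and Esrra at 0.14 (adjusted p = 0.240) did not pass.

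Of 17 target genes of the bile acid receptor FXR that were tested, Abcb11 and Abcb4 among them, 1 rose and 0 fell, with a median of -0.15. Ratios were above 0 for 6 of them and below 0 for 11. The gene that rose was Apoc2, a cofactor of lipoprotein lipase, at 0.72 ± 0.25 (SD, n = 4; adjusted p = 0.0471 by limma). Slc51b at 0.27 (adjusted p = 0.0806 by limma), Apoa5 at 0.39 (adjusted p = 0.0856), Baat at -0.23 (adjusted p = 0.0938) and Fetub at -0.57 (adjusted p = 0.109) did not pass. Nr0b2, the repressor SHP that FXR induces, had a ratio of 0.11 (adjusted p = 0.617). Of 25 NRF2 and xenobiotic target genes tested, 0 passed by limma and 11 had an unadjusted p under 0.05, with a median of 0.12. The smallest p among them was that of Cyp2b10, a drug-metabolising P450, with ratios of 1.86, 0.46, 2.66 and 2.22 (adjusted p = 0.0510).

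Markers of liver cell types gave the setting of these values. Of hepatocyte, cholangiocyte, endothelial, macrophage and stellate markers, 0 of 15, 12, 17, 16 and 15 tested passed by limma (8, 2, 5, 9 and 11 at an unadjusted p under 0.05), with median ratios of -0.17, -0.02, -0.11, 0.41 and -0.28. The mean hepatocyte marker level was 15.86 to 16.32 in IlrunKO mice and 16.05 to 16.36 in WT mice, and that of macrophage markers 10.40 to 10.89 in IlrunKO mice and 10.04 to 10.58 in WT mice. The hepatocyte levels split by dye, with 16.14 and 16.32 in IlrunKO mice 1 and 2 (Cy5) and 15.87 and 15.86 in IlrunKO mice 3 and 4 (Cy3). Cholangiocyte markers averaged 7.79 to 7.88 in IlrunKO mice and 7.80 to 7.96 in WT mice. Endothelial markers averaged 9.76 to 9.88 in IlrunKO mice and 9.88 to 9.97 in WT mice. Stellate markers averaged 8.72 to 9.01 in IlrunKO mice and 8.97 to 9.25 in WT mice. Of 9 adipocyte markers tested 2 rose (Cfd and Adrb3) and 8 had an unadjusted p under 0.05, with a median ratio of 0.92, beyond that of every other marker list. They had a mean level of 10.10 to 10.65 in IlrunKO mice and 9.17 to 9.54 in WT mice, while Adipoq, Lep and Plin1 were not above background. Ratios were above 0 for 8 of the 9 and below 0 for 1, Fabp4, at -0.11 (adjusted p = 0.327 by limma). Of 13 periportal genes 1 rose, the histidine catabolic enzyme Hal at 0.72 ± 0.22 (SD, n = 4; adjusted p = 0.0345 by limma), and of 13 pericentral genes 0 passed (5 at an unadjusted p under 0.05). The part of these markers in the transporters' values was not tested.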

How the data were processed

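On 4 arrays (design 026655), livers were compared in 2 colours, each array with an IlrunKO and a WT liver, from 500 ng of RNA per sample per the labels' protocols. The authors deposited scanner output with raw intensity, processed intensity and the log10 ratio of the red over the green channel, which Agilent Feature Extraction (version 10.10.1.1, per the file headers) wrote. The authors also deposited log2 ratios of IlrunKO over WT, a direction checked against the scanner output (r from 0.977 to 0.991 with the ratios used here). Their column medians were -0.039, -0.043, 0.038 and 0.035, and how they were normalised is not stated in the labels or headers read here. Genotype and dye came from the labels.

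Raw intensity was processed in limma 3.58.1 (R 4.3.3, files read with data.table, version 1.17.8) by normexp with offset 50 and loess within arrays, with 1377 control spots at weight 0 and 224 to 381 outlier spots per array left out. No spot was saturated. Channel levels were taken after Aquantile normalisation between arrays. Spots of a probe were averaged, and the brightest probe stood for a gene. Of 39429 probes, the RefSeq annotation gave a name to 26055 by accession and to 4125 by symbol, and 9249 kept the name in the files. Genes entered the test where either genotype had at least 3 of its 4 channels well above background for their probe. The model (lmFit and eBayes, two-sided) had genotype and dye terms, leaving 2 residual degrees of freedom beside 2.83 of the prior. Benjamini-Hochberg adjustment ran over all genes, or over all probes, with a threshold of 0.05. The dye term takes up differences between arrays 1 and 2 and arrays 3 and 4. Probe positions are those of the files (mm9).

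On simulated data of this design (19566 genes) the model recovered 45.2% of log2 changes of 0.5 and 91% of log2 changes of 1, and 5.55% of its calls were false. The simulation changed 200 genes per run and drew independent normal errors with variances from the fitted prior. Its rates therefore hold under the model's own assumptions and do not measure the error in these data.

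The members and gene lists were chosen with earlier results of these data known. The text names all members with each probe, Ilrun, and of each list the genes that passed and up to 4 in all with the smallest p. For the marker, sex-biased, NRF2 and zonation lists it gives counts and fewer names. The acute phase list, and Cyp7a1, Nr0b2, Fetub, Fabp4, Slc51a, Cyp3a11, Gsta1, Saa1 and the other non-transporter genes plotted for IlrunKO mouse 2, were picked after values were seen. The analysis was repeated under 16 other settings (dye term, background correction, normalisation, filter, probe per gene, variance model, array weights, separate channels, deposited values and leaving out each array) and 3 more chosen after seeing the data.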

Additional observations from a re-analysis of the deposited data

Results flagged for a closer look

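Of 36 groups of 4 values examined for the transporters, 4 held a mouse or array whose gap to its nearest neighbour, as a share of the group's range, was above Dixon's 95% critical value, and chance gives about 1 in 20. The Slco1a4 ratio on array 2 was -0.96, against 0.22 to 0.25 on the other arrays. The Abcc3 level in IlrunKO mouse 2, the same array, was 13.50, against 14.10 to 14.15 in the other IlrunKO mice. The level of the Slc10a1 single-gene probe in IlrunKO mouse 1 was 11.97, against 11.36 to 11.46 in the other IlrunKO mice. The Abcc4 level in WT mouse 3 was 7.72, against 7.27 to 7.33 in the other WT mice.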

How the results depend on the processing

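The count of all genes called (269 as reported) was 440 without background correction, 80 from processed intensities, 450 from the deposited values, 1 with median centring and 2437 in the separate-channel model. It was 0 by limma with a trended and robust variance, where 3560 genes had an unadjusted p under 0.05, and 1 to 465 with 1 array left out: 465 without array 1, 257 without array 2, 1 without array 3 and 1 without array 4. No transporter was called under any alternative except 1 in the separate-channel model, Slco1a1. That gene's ratio lay between -1.15 and -0.61 over its alternatives (adjusted p 0.0168 to 0.396). The single-gene probe of Slc10a1 lay between -0.55 and -0.34 (adjusted p 0.0160 to 0.288) and passed in the separate-channel model, at -0.43. Uptake minus export was -0.23 with the single-gene probe for Slc10a1, turned to 0.06 with Slco1a1 left out, and lay from -0.19 to -0.10 under its other 17 alternatives. The turn of sign was seen with the repeat-like probe. With the single-gene probe and without Slco1a1 together the difference was -0.07 ± 0.09 (SD over arrays), too near 0 to give a direction. Abcb11, Abcb4 and Abcc4 kept their sign under all 16 of theirs, though their size moved with 1 array left out (Abcb11 -0.23 to -0.07, Abcb4 -0.39 to -0.18, Abcc4 0.02 to 0.21), and 6 members changed sign under at least 1. Median centring, which moved the median of all genes to -0.05, gave -0.12 for Abcc2, -0.10 for Slc10a1, -0.14 for Slco1b2 and -0.01 for Slco2a1. Slc10a1 was -0.17 as the mean of its probes and -0.43 by its single-gene probe, and Slco1b2 was -0.01 from processed intensities. With 1 array left out, Abcc2 ran from -0.01 (without array 1 or array 4) to 0.03, Abcc3 from -0.04 (without array 1) to 0.49, Slco1a4 from -0.37 (without array 1) to 0.24 (without array 2), Slco1b2 from -0.07 (without array 1 or array 4) to 0.13 and Slco2a1 from -0.05 (without array 4) to 0.29. The cause was not tested. Fits without an array assume that the array left alone in its dye orientation varies like the others. Through the dye term, that array counts as much as the remaining arrays together. Without array 1 the fit therefore leans on array 2, and the values of Abcc3 (-0.04) and Slco1a4 (-0.37) carry that weighting. The ratio within an array is itself the paired comparison, and the separate-channel model is the fit that treats the channels apart. With 4 arrays, 45.2% of simulated log2 changes of 0.5 were recovered, so differences of that size can be missed even where the model's assumptions hold.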
